A study of Mus musculus with 6 samples.

Results

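The genes described here encode the subunits of the receptors for glutamate, GABA and glycine, the main fast transmitters of the brain, together with the genes that lie across from them on the other DNA strand. They were chosen from the symbols of the 57010 genes in a table of raw read counts: symbols of the Gria, Grik, Grin, Grid, Grm, Gabr, Gabbr, Glra and Glrb series, and every gene that overlaps their exons from the other strand by at least 1 base. The rule took 70 genes, of which 52 were receptor subunit genes and 16 were opposite-strand partners of receptor genes. The other 2 were Grid2ip, whose symbol fits the pattern but which encodes a protein that binds a receptor, and Gm20635 opposite to it.

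The samples were wild-type mouse cells without a perturbation, in groups of 3 libraries. The ESC group was embryonic stem cells, which are pluripotent and were kept under standard culture conditions, all from a line named WT ESC. The neuron group was primary neurons of the cortex (DIV7), taken from mouse embryos of day 16.5 and grown in a neuronal medium for 7 days; the library names of neuron replicates 2 and 3 hold the word empty, which is not explained. Nothing in the labels says whether replicates came from separate cultures, embryos or passages, so the p-values measure the spread between these libraries, which may be technical.

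As background, ionotropic glutamate receptors are tetrameric cation channels. AMPA receptors carry most fast excitation, NMDA receptors need the Grin1 subunit together with Grin2 or Grin3 subunits, and the kainate and delta families are their relatives. The Grm genes encode metabotropic glutamate receptors, which signal through G proteins. GABA-A and glycine receptors are pentameric chloride channels, and GABA-B receptors are obligate pairs of Gabbr1 and Gabbr2 that signal through G proteins.

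Total counts ran from 1368303 to 1775055 in the ESC libraries and from 513425 to 624792 in the neuron libraries, so 3 counts were worth 2.26 to 2.90 CPM (counts scaled to a common, normalised library size) in ESC and 3.92 to 4.81 CPM in neuron libraries; these floors cover counting error only. Levels below them were not detectable at this depth. The batch label equals the group, so batch and group cannot be told apart and no value could be given within a batch. The sources used here do not give the strand setting of the counting, so reads of a gene and of a gene overlapping it on the other strand cannot be told apart. Whether the strand counted was that of the listed gene or the other one is not given either: in the latter case the counts of a gene would be reads from the strand across from it, and the values of each receptor gene and of its partner would change meaning. Every value and direction below follows the assignment made in the table and carries this limit. Counts per gene are given in the order of replicates 1 to 3. Cell type was checked on marker lists. All 12 pluripotency markers had counts in ESC libraries and 8, among them Pou5f1 and Nanog, were at 0 in every neuron library. The markers summed to 178 to 261 CPM in ESC, and the 2 genes across from markers of this list summed to 14300 to 14800 CPM. Pou5f1 had 51, 29 and 43 ESC counts, and Gm19553 across from it had 18559, 13967 and 15649. All 12 neuronal markers had counts in neuron libraries, with sums of 1080 to 1330 CPM against 167 to 204 CPM in ESC, but most of that was Nefm, and Stmn2 fell (log2 change −1.73, edgeR adjusted p 7.42e-04). The 4 genes across from neuronal markers summed to 3770 to 4180 CPM in neuron libraries. Nefm and Nefl overlap each other and are themselves markers of this list, so both sums include them. Across from Syp, with 5, 0 and 6 neuron counts, Gm14703 had 1355, 1218 and 1142. The pan-neuronal markers Tubb3 (4, 2 and 1 counts) and Snap25 (3, 3 and 0) were near 0 in the neuron libraries. Of 6 astrocyte markers, 5 had counts in neuron libraries (sums of 41.7 to 67.1 CPM, against 2.71 to 5.27 in ESC) and Aldh1l1 was at 0. Oligodendrocyte-lineage markers summed to 35.8 to 56.1 CPM in neuron and 24.1 to 29.9 CPM in ESC libraries. Inhibitory-neuron markers summed to 490 to 647 CPM in neuron libraries, mostly Dlx1, against 1.93 to 5.27 CPM in ESC, and Dlx5 and Npy were at 0. Excitatory-neuron markers summed to 107 to 125 CPM against 48.2 to 50.3 CPM. Microglial markers summed to 125 to 140 CPM in neuron and 196 to 265 CPM in ESC libraries, nearly all Csf1r, and C1qa and Tmem119 were at 0 in all 6 libraries, and the 5 fibroblast markers summed to at most 3.21 CPM. The part of other cell types in the receptor values was not tested. In these bulk libraries, fewer cells of a type and less RNA per cell cannot be told apart.

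Promoter sequences are shown for 4 receptor genes: Grin1, the obligatory NMDA subunit, whose opposite gene had the highest counts of all members; Gria2, an AMPA subunit with few counts; Grm7, which rose in neurons; and Gabrp, the only tested receptor gene that fell. Each sequence is the 250 bases before the RefSeq start on GRCm38.p6, written along the gene, and capitals mark motif matches.
Grin1 (chr2:25319188-25319437, minus strand): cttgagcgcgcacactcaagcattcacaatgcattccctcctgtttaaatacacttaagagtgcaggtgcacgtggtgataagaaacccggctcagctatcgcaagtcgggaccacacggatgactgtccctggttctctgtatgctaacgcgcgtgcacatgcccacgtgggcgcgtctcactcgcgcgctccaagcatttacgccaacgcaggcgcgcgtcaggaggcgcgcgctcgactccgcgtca
Gria2 (chr3:80802836-80803085, minus strand): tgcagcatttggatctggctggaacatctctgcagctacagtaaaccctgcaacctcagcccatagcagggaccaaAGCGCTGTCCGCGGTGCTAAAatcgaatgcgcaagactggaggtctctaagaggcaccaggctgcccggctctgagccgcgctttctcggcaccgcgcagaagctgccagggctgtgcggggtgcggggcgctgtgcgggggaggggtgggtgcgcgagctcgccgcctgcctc
Grm7 (chr6:110645262-110645511, plus strand): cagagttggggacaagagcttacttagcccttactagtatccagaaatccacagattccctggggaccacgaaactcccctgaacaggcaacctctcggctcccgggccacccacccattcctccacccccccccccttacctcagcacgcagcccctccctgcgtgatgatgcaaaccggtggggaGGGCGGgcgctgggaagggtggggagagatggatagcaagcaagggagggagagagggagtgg
Gabrp (chr11:33578958-33579207, minus strand): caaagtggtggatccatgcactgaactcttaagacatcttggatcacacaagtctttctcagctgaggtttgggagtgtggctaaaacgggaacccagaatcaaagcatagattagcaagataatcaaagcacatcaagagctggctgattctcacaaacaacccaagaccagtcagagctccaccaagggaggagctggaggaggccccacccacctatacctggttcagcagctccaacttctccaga
The capitals in Gria2 are a match, on the strand opposite to the gene and with 2 mismatches, to the RE1 element, searched by its consensus with up to 4 mismatches on both strands; RE1 is the element bound by the repressor REST, which is known for keeping neuronal genes silent outside neurons. RefSeq promoter entries hold 300 bases that end 50 bases into the gene, and only the 250 bases before the start were searched. Of all 32851 entries 0.469% held such a match, and of 43 promoters of receptor genes 1 did, that of Gria2. The capitals in Grm7 are a GC box (GGGCGG on either strand), which 32.7% of all promoters and 21 of the 43 receptor promoters (48.8%) held. A TATA box (TATAAA) was in 12.4% of all and 5 of the 43 receptor promoters. The cAMP response element TGACGTCA was in 1.55% of all and in 0 of the 43. The 4 promoters differed in base composition: Grin1 held 27 CpG sites, Gria2 19, Grm7 8 and Gabrp 1, beside a median of 6 over all promoters. RefSeq had a promoter for 36 of the 52 receptor genes, and these matches are descriptions of letters only.

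Most receptor genes had very few counts in either cell type. Of the 52 receptor genes, 7 had no count in any library, 19 reached at most 3 counts, 15 reached 4 to 9, and 11 reached 10 or more in some library. Of the 16 partners, 11 reached 10 or more. Counts on receptor genes were seen for 19, 15 and 19 genes in ESC replicates 1 to 3 and for 33, 32 and 29 genes in neuron replicates 1 to 3, although the neuron libraries were the shallower ones. In all, 21 receptor genes had counts in neuron libraries only and 5 in ESC libraries only.

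Summed over all 52 receptor genes, the level was 360, 300 and 341 CPM in ESC and 338, 352 and 317 CPM in neuron libraries, and the groups overlapped. Scaled to total counts instead, a scaling of these sums that was added after the values were seen, receptor genes held 0.0269%, 0.0227% and 0.0255% of the ESC counts and 0.0415%, 0.0424% and 0.0386% of the neuron counts, and every neuron library lay above every ESC library. Over the 16 opposite-strand partners it was 289, 190 and 290 CPM in ESC and 2990, 2830 and 2980 CPM in neuron libraries, and every neuron library was above every ESC library. Of the counts on receptor genes and partners together, the partners held 44.5%, 38.7% and 46.0% in ESC and 89.8%, 88.9% and 90.4% in neuron libraries, as the table assigns them; if the other strand was counted, the reads on partners come from the strand of the receptor genes. The sums differed in direction between families. AMPA genes went from 0.573 ± 0.508 to 11 ± 4.04 CPM (SD, n = 3), kainate genes from 5.75 ± 0.299 to 15.5 ± 2.54 CPM and NMDA genes from 99.6 ± 21 to 193 ± 14.4 CPM, while GABA-A genes went from 171 ± 44.3 to 53.6 ± 3.51 CPM and GABA-B genes from 38.5 ± 6.24 to 22.2 ± 2.28 CPM. In each of these 5 families the groups did not overlap under this scaling. Such separation was common. Of the 7150 genes tested below, 47.6% had every neuron library above every ESC library and 38.9% had every one below. Scaled to total counts, the GABA-B sums overlapped (log2 ratio of neuron over ESC means −0.10, against −0.79 in CPM), and the other 4 families kept their direction without overlap. Of the mean ESC level of GABA-A genes, 157 CPM was Gabrp, which had no neuron count. The other GABA-A genes made up the small rest in ESC and all of the 53.6 CPM in neuron libraries. Without Gabrp the GABA-A sum was thus higher in neurons, and the fall of the family was that of 1 gene.

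**Figure D1:**
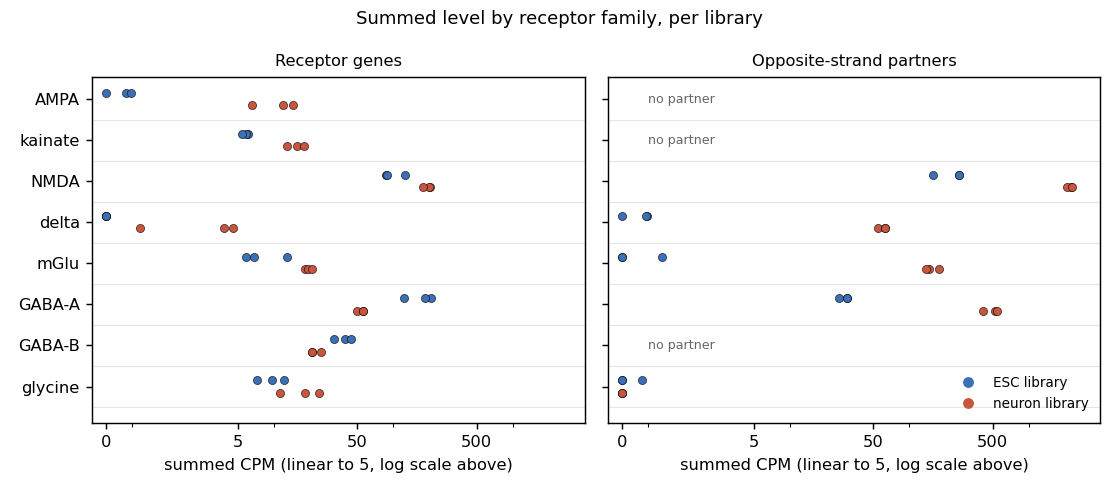
Summed CPM of receptor genes (left) and of their opposite-strand partners (right) by receptor family, 1 point per library, on an axis that is linear to 5 and logarithmic above. The partners of NMDA receptor genes sit at 2080 to 2320 CPM in the neuron libraries and at 159 to 261 CPM in the ESC libraries, while NMDA receptor genes themselves sit at 176 to 204 and 87.3 to 124 CPM.

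Neurons were compared with ESC by edgeR's quasi-likelihood test over the 7150 genes that passed its low-count filter, 12.5% of the table. A gene was called at a Benjamini-Hochberg adjusted p under 0.05 over all tested genes. Of the 52 receptor genes 8 were tested: 6 were higher in neurons (Grm7, Grin3a, Gabrb1, Grin2d, Glra4 and Grin3b), 1 was lower (Gabrp) and 1 was not called (Gabbr1). Without ESC replicate 3, 4 receptor genes were called, 3 higher and 1 lower. Of the 16 partners 10 were tested, and 9 were higher and 1 lower. The background is high in this comparison: 47% of all tested genes were called higher, 38.6% lower and 85.6% in either direction, and the counts of members are to be read against these shares. Past a minimum change of 2-fold, 3 of the 8 receptor genes (Gabrp, Grin3a and Grm7) and 10 of the 10 partners were called, against 67.4% of all tested genes. The median log2 fold change was 0.99 over the 8 receptor genes and 9.14 over the 10 partners, beside 0.37 over all tested genes. Of the partners, 4 had counts in neuron libraries only, and Gm14329, A230004M16Rik and 9330118I20Rik had at most 1 count in any ESC library. These passed the filter only through the group in which they were high. Grm7, Gabrp and the partner that fell likewise had counts in 1 group only. Fold changes of genes at 0 in 1 group depend on the prior count, so the 9.14 is not a measure of partners as a set. Scaling to total counts instead of the trimmed mean moved the median over all genes to 1.10, and the counts of 6 higher and 1 lower receptor gene and of 9 higher and 1 lower partner were the same under it.

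**Figure D2:**
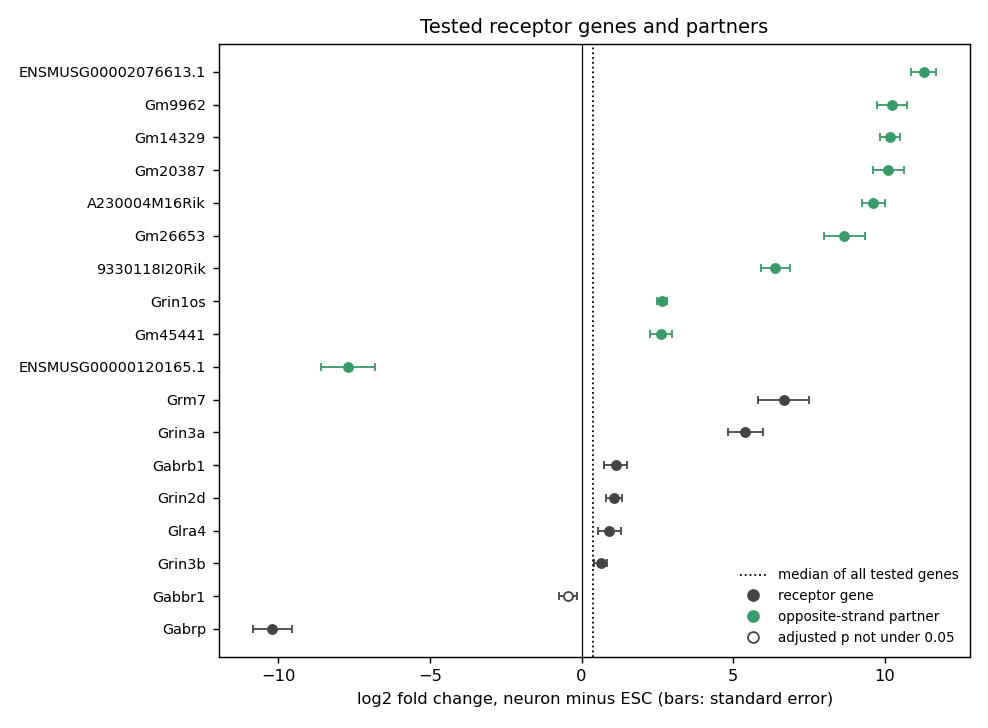
Log2 fold change (neuron minus ESC) of the 8 tested receptor genes and 10 tested partners, with standard errors; open symbols did not reach an adjusted p under 0.05 and the dotted line is the median of all tested genes at 0.37. Of the partners, 7 lie above 6 and ENSMUSG00000120165.1 lies at −7.70, while the receptor genes Grin2d, Gabrb1, Glra4 and Grin3b lie between 0.63 and 1.12.

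Genes with and without an opposite-strand partner passed the filter in different shares. Of the 16 receptor genes with such a gene 5 passed the filter, and of the 36 without one 3 passed; among all genes those with an exonic partner on the other strand passed in 48.9% and those without in 5.22%. Among tested genes, 41.2% of those with a partner and 57.9% of those without were higher in neurons. Of the 16 partners, 6 lay inside the receptor gene, 7 ran past its end and 3 ran past its start. Tmem259 is a protein-coding gene, 12 others are non-coding in GENCODE M21, and 3 had no entry there and are named by identifier.

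The NMDA family held the largest opposite-strand counts. Grin1 (ENSMUSG00000026959.14, on GRCm39 as named in the submitters' processing notes at chromosome 2, 25181193 to 25209199, minus strand) had 9, 6 and 13 ESC counts and 4, 5 and 2 neuron counts, too few to be tested. Grin1os (ENSMUSG00000085830.2), a non-coding gene inside the Grin1 span, had 321, 143 and 255 ESC counts and 1047, 772 and 852 neuron counts. All neuron libraries were above all ESC libraries, of which replicate 2 was the lowest. Its level went from 204 ± 56.7 to 1290 ± 124 CPM (SD, n = 3), a log2 change of 2.66 (SE 0.16, edgeR adjusted p 1.97e-12). The pair shares 1307 exonic bases, 45.2% of Grin1os, spread over 11 of the 18 exon blocks of Grin1 from block 7 to the last. In neuron libraries Grin1os had 243 times the summed counts of Grin1, and in ESC libraries 25.7 times.

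Grin2b encodes the NMDA subunit that dominates in the embryonic forebrain. The gene (chromosome 6, 135690231 to 136150509, minus strand) had 7, 6 and 7 ESC counts and 2, 6 and 9 neuron counts and was not tested. Each of the 3 genes opposite to it rose. Gm14329 (chromosome 6, 135709868 to 135721309, plus strand), which shares 143 bases with the last exon block of Grin2b, had 0, 0 and 1 ESC counts and 354, 324 and 320 neuron counts (log2 change 10.16, SE 0.32, edgeR adjusted p 4.53e-27). The ratio of summed levels was 1680, with a 95% counting interval of 301 to 66400. ENSMUSG00002076613.1, a single exon of 105 bases of which 81.9% lie across block 14 of Grin2b, had no ESC count and 233, 246 and 214 neuron counts. It was at least 129-fold higher against a floor of 3 counts per library (log2 change 11.28, SE 0.41, edgeR adjusted p 2.85e-24). Gm26653 starts 450 bases into Grin2b and runs past its start, shares 49 bases with its block 3, and had no ESC count and 48, 27 and 38 neuron counts, at least 20.8-fold higher (log2 change 8.66, SE 0.67, edgeR adjusted p 3.38e-14). Together the 3 genes had 106 times the counts of Grin2b in the neuron libraries.

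In neuron libraries the larger counts at Grin2d and Grin3b lay on the receptor gene itself, unlike at Grin1 and Grin2b; in ESC libraries Grin2b also had more counts (20) than its 3 partners (1). Grin3a (chromosome 4, 49661611 to 49845744, minus strand), a glycine-binding subunit gene with no opposite-strand exonic partner, had 1, 0 and 1 ESC counts and 28, 21 and 13 neuron counts. The groups did not overlap, and the level rose from 0.553 ± 0.485 to 29.6 ± 8 CPM (log2 change 5.40, SE 0.58, edgeR adjusted p 9.48e-11). The ratio of summed levels was 52.1 (95% counting interval 13.8 to 440). Grin2d (chromosome 7, 45481307 to 45527802, minus strand), which encodes a subunit known from embryonic brain and interneurons, had 42, 36 and 22 ESC counts and 58, 41 and 27 neuron counts. In CPM this was 31.6, 34.8 and 19.9 against 75.7, 61.1 and 43.3, with no overlap (log2 change 1.07, SE 0.26, edgeR adjusted p 2.78e-04). Gm45441, opposite the last exon blocks of Grin2d and also overlapping Grwd1, rose from 7.11 ± 3.06 to 42.7 ± 13.9 CPM (log2 change 2.62, SE 0.36, edgeR adjusted p 1.91e-08).

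At Grin3b, another glycine-binding subunit gene of the family, the partner is a protein-coding gene. Grin3b (chromosome 10, 79806549 to 79813024, plus strand) had 54, 79 and 50 ESC counts and 61, 57 and 53 neuron counts, or 40.6, 76.4 and 45.2 CPM against 79.6, 84.9 and 84.9 CPM. Every neuron library was above every ESC library, though ESC replicate 2 lay close to them (log2 change 0.63, SE 0.22, edgeR adjusted p 0.00917). Without ESC replicate 1 the adjusted p was 0.15, without ESC replicate 3 it was 0.112 and without the low-count filter it was 0.0631 (edgeR). Its partner Tmem259, a gene for a membrane protein, shares 1059 bases with Grin3b and had 16, 7 and 25 ESC counts and 5, 4 and 3 neuron counts; it was not tested. Grin2a and Grin2c had at most 4 counts in any library.

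**Figure D3:**
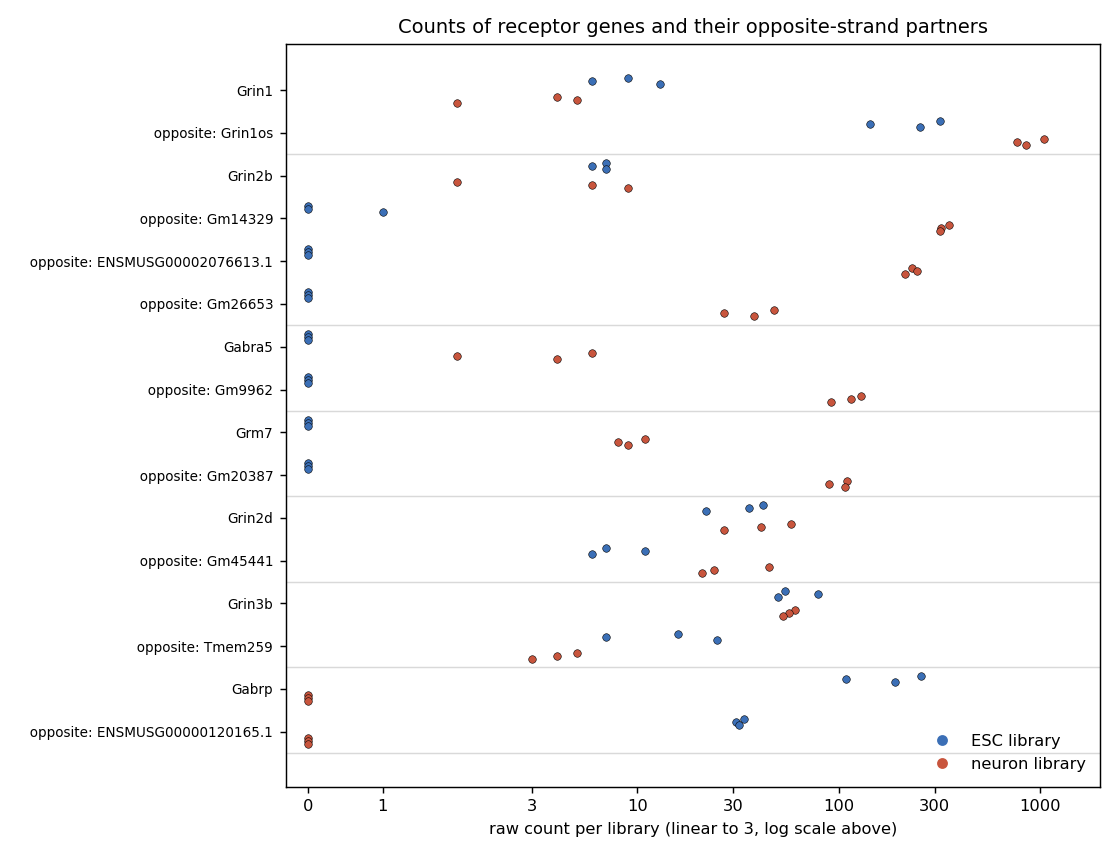
Raw counts per library of 7 receptor genes and, under each, the genes overlapping its exons from the other strand; blue points are ESC and red points neuron libraries, and neuron libraries hold fewer total counts. Points of Grin1, Grin2b, Gabra5 and Grm7 stay at or below 13 counts, while their partners reach 90 to 1047 counts in neuron libraries, apart from Gm26653 with 27 to 48.

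AMPA and kainate genes have no opposite-strand exonic partner, and none of the 9 passed the filter. Gria2, which encodes the subunit that sets calcium permeability, had no ESC count and 2, 4 and 5 neuron counts, and Gria1 had no ESC count and 1, 1 and 4 neuron counts. Gria3 had at most 1 count in a library and Gria4 at most 3. Summed over the 4 AMPA genes there were 1, 1 and 0 ESC counts and 5, 8 and 9 neuron counts. Among kainate genes Grik5, a subunit that needs Grik1 to Grik3 to form channels, had the most counts, with 6, 6 and 1 in ESC and 2, 3 and 1 in neuron libraries. Grik1 and Grik2 had counts in each neuron library and in no ESC library. Gria2, Gria3, Gria4 and Grik4 share exonic bases with a gene on their own strand, and how reads in such bases were assigned is not given in the sources used here.

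In the delta family, Grid1 was at 0 in all 6 libraries. The partner transcript 9330118I20Rik had 0, 1 and 1 ESC counts and 42, 42 and 39 neuron counts. The groups lay far apart, with a log2 change of 6.39 (SE 0.49, edgeR adjusted p 7.7e-15) and a ratio of 103 (95% counting interval 28.0 to 864). Grid2ip, taken by its symbol only, had 8, 1 and 5 ESC counts and 10, 7 and 26 neuron counts (log2 change 2.35, SE 0.54, edgeR adjusted p 2.88e-04), with neuron replicate 3 far above the other 2, and Gm20635 opposite to it was not called (adjusted p 0.818).

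Of the metabotropic glutamate genes Grm7 (chromosome 6, 110622542 to 111544191, plus strand), a presynaptic receptor gene, was the only one tested. It had no ESC count and 11, 8 and 9 neuron counts, at least 5.17-fold higher (log2 change 6.66, SE 0.83, edgeR adjusted p 3.81e-09). Gm20387 starts 335 bases into Grm7, runs the other way past the start of Grm7, and shares 130 bases with its first exon block. It had no ESC count and 110, 90 and 108 neuron counts, at least 57.2-fold higher (log2 change 10.11, SE 0.51, edgeR adjusted p 1.15e-19). Both genes of this head-to-head pair rose, as did Gm26653 at the start of Grin2b. Grm4, also presynaptic, went the other way, with 9, 6 and 11 ESC counts and 0, 0 and 1 neuron counts, but did not pass the filter. Grm5, Grm2, Grm3, Grm6 and Grm8 had at most 4 counts in any library.

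**Figure D4:**
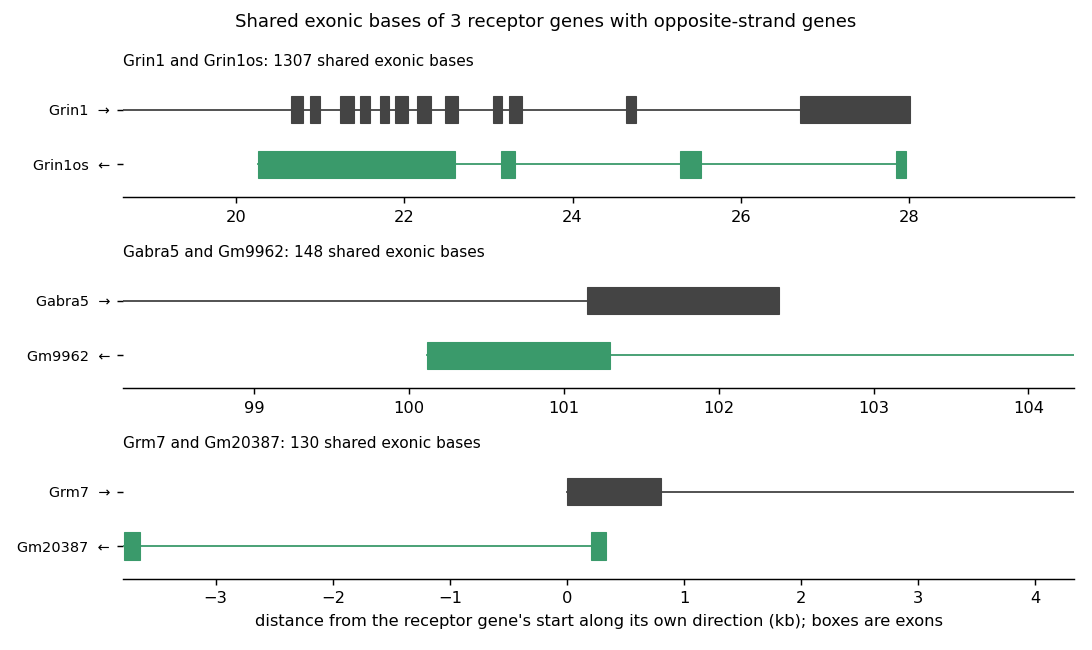
Exons (boxes) of 3 receptor genes and of the gene opposite to each, by distance in kb from the receptor gene's start along its own direction; arrows give the direction of each gene. Grin1os lies across 11 exon blocks of Grin1, Gm9962 across the last block of Gabra5, and Gm20387 across the first block of Grm7.

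The GABA-A family split between 1 gene that fell and partners that rose. Gabrp (chromosome 11, 33500781 to 33528959, minus strand) encodes the pi subunit, better known from epithelial tissues than from brain. It had 258, 109 and 190 ESC counts and no neuron count. All ESC libraries were far above 0, with replicate 2 the lowest, and the gene was at least 35.7-fold lower in neurons (157 ± 46.2 CPM in ESC, log2 change −10.19, SE 0.64, edgeR adjusted p 6.54e-14). ENSMUSG00000120165.1, which shares 83 bases with exon block 7 of Gabrp, had 34, 31 and 32 ESC counts and no neuron count, at least 6.41-fold lower (log2 change −7.70, SE 0.88, edgeR adjusted p 5.73e-10). It was the only tested partner that fell, and at this pair the receptor gene had the larger counts.

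A230004M16Rik, a non-coding partner gene, had 0, 0 and 1 ESC counts and 275, 250 and 168 neuron counts. Every neuron library was above every ESC library (log2 change 9.62, SE 0.37, edgeR adjusted p 2.46e-24), and the ratio was 1170 with a 95% counting interval of 209 to 46100. Gabra5 (chromosome 7, 57057420 to 57159807, minus strand), an alpha subunit gene of extrasynaptic receptors, had no ESC count and 6, 2 and 4 neuron counts. Gm9962, sharing 148 bases with its last exon block, had no ESC count and 129, 115 and 92 neuron counts, at least 61.9-fold higher (log2 change 10.23, SE 0.50, edgeR adjusted p 2.74e-20).

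Gabrb1 and Gabra4 are themselves an opposite-strand pair, with starts that overlap by 46 exonic bases on chromosome 5. Gabrb1 had 11, 12 and 7 ESC counts and 13, 12 and 14 neuron counts, which is 8.74 ± 2.67 against 19.1 ± 2.93 CPM (SD, n = 3). The CPM values did not overlap between the groups (log2 change 1.12, SE 0.38, edgeR adjusted p 0.00734), but the adjusted p was 0.0618 without ESC replicate 3 and 0.0533 without neuron replicate 3 (edgeR). Gabra4 had no ESC count and 4, 3 and 5 neuron counts. Gabrd, the delta subunit gene, had 5 counts in each ESC library against 1, 0 and 0 neuron counts. Gabra3, Gabra6, Gabrb2, Gabrg1 and Gabrr3 had no count in any of the 6 libraries.

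The genes of both GABA-B subunits were at a higher mean CPM in ESC libraries, for Gabbr1 under some scalings only. Gabbr1 had 36, 24 and 36 ESC counts and 17, 13 and 12 neuron counts, or 27.6 ± 4.70 against 20.3 ± 1.67 CPM (SD, n = 3), and was not called (log2 change −0.44, SE 0.30, edgeR adjusted p 0.17). Its sign depends on the scaling, as total counts gave 0.29 (edgeR adjusted p 0.377). Gabbr2 had 16, 9 and 13 ESC counts and 2, 1 and 1 neuron counts and did not pass the filter. Among glycine receptor genes only Glra4, an alpha subunit gene, was tested. It had 15, 8 and 8 ESC counts and 14, 14 and 7 neuron counts; in CPM, neuron replicate 3 (11.2) lay just below ESC replicate 1 (11.3), so the groups overlapped (log2 change 0.92, SE 0.39, edgeR adjusted p 0.0296). Leaving out ESC replicate 2, ESC replicate 3, neuron replicate 1 or neuron replicate 2 gave adjusted p-values of 0.0894, 0.137, 0.102 and 0.181 (edgeR). The other 4 glycine receptor genes, Glrb among them, had at most 2 counts in any library.

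Levels were compared between receptor genes per length, as CPM per kb of exon. In the neuron libraries the order began with Grin3b (25.2 ± 0.934), Grin2d (9.01 ± 2.43) and Glra4 (8.36 ± 2.48; SD, n = 3), followed by Gabbr1 (2.61 ± 0.215), Grin3a (2.41 ± 0.652) and Grm7 (2.31 ± 0.243). Grin3b lay above all others beyond its spread; Grin2d and Glra4 did not differ beyond theirs, nor did Gabbr1, Grin3a and Grm7. In ESC libraries Grin3b stood at 16.4 ± 5.92 CPM per kb, behind Gabrp. This order follows the strand assignment of the table, and no order under the other assignment was made: Grin1 stood at 0.545 CPM per kb while Grin1os across from it stood at 446, and Grin3b shares 32.1% of its exonic bases with Tmem259.

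**Figure D5:**
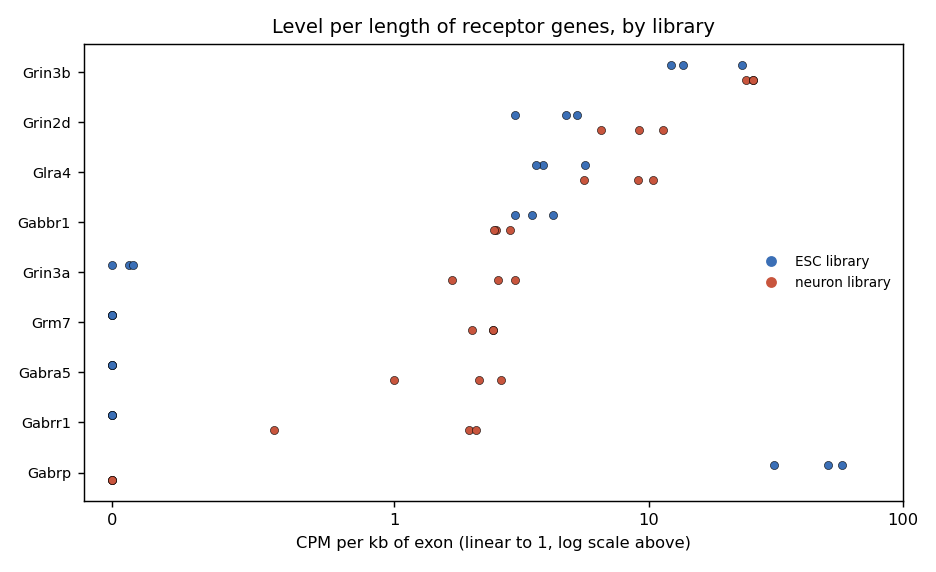
CPM per kb of exon for the 8 receptor genes with the highest mean in neuron libraries, and for Gabrp, 1 point per library; the axis is linear to 1 and logarithmic above. Grin3b sits at 24.2 to 25.8 in the neuron libraries, and Gabrp is at 0 there.

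Because the strand setting is not given, each receptor gene was also summed with its partners and tested as 1 locus in the same kind of fit, which gives a value that does not depend on which gene of the locus a read in the shared bases was given to. Of 13 loci tested, 10 were higher in neurons and 1 was lower, against 46.9% and 38.6% of all rows in that fit. The Grin2b locus went from 6.10 to 887 CPM (log2 change 7.16, SE 0.19, edgeR adjusted p 1.72e-29) and the Grin1 locus from 212 to 1300 CPM (log2 change 2.61, SE 0.15, edgeR adjusted p 2.82e-12). The Gabra5 and Grm7 loci, of which the receptor gene Gabra5 alone was untested, had log2 changes of 10.28 and 10.24. Both had no ESC count and passed the filter only through the neuron group, and the Gabrp locus had no neuron count. The joined Gabra4 and Gabrb1 locus rose by 1.5, the Grin2d locus by 1.53, and the Gabrp locus fell by 10.42 on the log2 scale. The Grin3b locus was not called (67.9 against 89.0 CPM, log2 change 0.40, edgeR adjusted p 0.064) but was under total counts (1.13, edgeR adjusted p 4.34e-06). The sum counts reads in all exons of a partner, not only in the shared bases. In neuron libraries the partners held 2671 counts at the Grin1 locus and 1804 at the Grin2b locus, against 11 and 17 on the receptor genes. If the other strand was counted, reads of a receptor gene outside the exons of its partners are in neither row. The locus sums cannot recover those reads.

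Receptor genes below the filter could be fitted only without it. In that fit 20 of the 45 receptor genes with a count were called, 16 higher and 4 lower in neurons, against 21.2% higher and 19.6% lower among 28820 genes. The genes below were named after their values were seen. Those lower besides Gabrp were Gabbr2 (log2 change −2.57, edgeR adjusted p 5.66e-04), Grm4 (−3.76, edgeR adjusted p 4.85e-04) and Gabrd (−2.99, edgeR adjusted p 0.0208). Among those higher were the AMPA genes Gria2 (5.25, edgeR adjusted p 5.24e-04) and Gria1 (4.41, edgeR adjusted p 0.0183), the kainate genes Grik1 and Grik2, the NMDA gene Grin2a and the GABA-A genes Gabra2, Gabra4, Gabra5, Gabrg3 and Gabrr1. Each of these rests on at most 9 counts in any library except Gabbr2 and Grm4, and the fold changes of genes at 0 in ESC depend on the prior count and are no bounds.

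Other genes of these synapses were described from 3 lists of 65 genes in all, of which 20 were tested; 10 were higher in neurons, 8 lower and 2 not called, against 47% higher and 38.6% lower among all tested genes, with 12 higher and 6 lower under total counts. Of the 10 higher genes, Shisa6, Nlgn1 and Slc1a2 had no ESC count and passed the filter only through the neuron group. Of 21 auxiliary subunit genes 4 were tested. Cnih2, an AMPA receptor auxiliary protein gene, rose from 6.31 ± 3.77 to 50.4 ± 11.4 CPM (log2 change 3.02, edgeR adjusted p 7.04e-10), and Cacng4 and Shisa6 rose too, while Shisa7 was lower (−1.32, edgeR adjusted p 0.00812). Of 25 scaffold and signalling genes 8 were tested, with Nlgn1, a postsynaptic adhesion gene, and Dlgap4 higher and 6 lower. Those 6 were Dlg4 (log2 change −4.32), Shank1 (−1.40), Dlgap1 (−2.26), Homer3 (−2.82), Gphn (−1.89) and Nlgn2 (−1.77), which encode scaffolds of excitatory synapses, gephyrin (Gphn) and an adhesion protein of inhibitory synapses (Nlgn2). Under total counts Shank1 (−0.67, edgeR adjusted p 0.0684) and Shisa7 (−0.60, edgeR adjusted p 0.233) were not called, and Glul and Slc38a1 were called higher. Dlgap4 lost its call without ESC replicate 3 (edgeR adjusted p 0.108), neuron replicate 2 (0.0618) or neuron replicate 3 (0.157), and Shisa7 without neuron replicate 3 (0.0622). Of 19 genes of transmitter synthesis, transport and the chloride gradient 8 were tested. Abat, which degrades GABA, rose by 2.99 on the log2 scale, the glycine transporter gene Slc6a9 by 1.77 and the chloride exporter gene Slc12a5 by 1.62 (edgeR adjusted p 5.29e-07, 2.18e-07 and 0.00114). Slc17a7, the vesicular glutamate transporter gene of cortical excitatory neurons, had 64, 49 and 54 ESC counts and 2, 1 and 0 neuron counts, a ratio of 33.1 of ESC over neuron levels (95% counting interval 11.1 to 162, log2 change −4.93, edgeR adjusted p 9.87e-12). The directions of these list genes, those of Slc17a7, Dlg4, Homer3 and Gphn included, are of the counts as assigned, and the strand they were counted on is not given.

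The 24 genes opposite to these list genes, beside those on the lists, gave 18 tested, of which 14 were higher in neurons, 2 lower and 2 not called. Among all tested genes 47% were higher and 38.6% lower. Among tested genes with an exonic partner on the other strand, 41.2% were higher and 43.4% lower. Of the 14, AC113599.1, Gm13872 and A830092H15Rik had no ESC count, and AC098707.1 and Gm14205 had at most 1 in any ESC library. They passed the filter only through the neuron group and could only be called higher. The 14 is therefore not a measure of these genes as a set. In the table Dlgap1 and Shank1 had the other direction from the genes opposite to them. AC079441.1 rose from 10.8 ± 1.73 to 287 ± 49.4 CPM opposite Dlgap1 (log2 change 4.70, edgeR adjusted p 1.76e-21), and 1700008O03Rik rose from 16.4 ± 5.36 to 67.7 ± 5.26 CPM opposite Shank1 (2.06, edgeR adjusted p 7.75e-09). If the other strand was counted, each of these values would be of reads from the strand across from the named gene. The direction of each gene itself would then not be known from them. Nlgn1 and A830092H15Rik opposite to it rose together, from 0 counts in ESC to 16, 20 and 20 and to 151, 138 and 112 counts in neuron libraries. These opposite-strand genes were chosen after their values were seen.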

How the data were processed

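RNA-seq of 3 ESC and 3 neuron libraries was analysed from 1 table of raw counts per gene deposited by the authors, with exon positions, strand and exonic length (exonic length is in bases). Samples were grouped and numbered by their titles, and columns were matched by library name, with 0 columns of sample values left unmapped. Per the labels' protocols, polyadenylated RNA was enriched by oligo-dT priming and read as paired ends. The submitters' processing notes name cutadapt, STAR and RSEM without versions and the build GRCm39, and the file headers name STAR alignments; the counting tool, strand setting and treatment of reads matching several places are not given in the sources used here. Positions are printed as in the table, and promoters as RefSeq gives them on GRCm38.p6. Symbols came by identifier from GENCODE M21 for 91.3% of genes.

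Genes were kept by filterByExpr (minimum count 10), scaled by TMM and compared with edgeR's quasi-likelihood test (glmQLFit robust) without covariates, with Benjamini-Hochberg adjustment and a threshold of 0.05; glmTreat tested a 2-fold change. CPM uses the TMM-scaled library sizes of the tested genes. The SE is the log2 fold change over the square root of F, an approximation. Bounds use 3 counts per library, and ratios use exact 95% binomial intervals of summed counts, which cover counting error only. In simulated data for this comparison (7150 genes, 200 changed 4-fold), 93.5% of changed genes were called and 5.56% of calls were false. That simulation changed few genes, as many up as down, each from a level common to both groups. In the real data 85.6% of tested genes were called and some had no count in a whole group, so these shares may not hold there. Replicates were compared by chi-square per degree of freedom (1.31 to 4.16), so each library was counted as 1 replicate. Named genes were the members passing the filter, the gene with the highest mean count of each family and called list genes, with full statistics for the 10 called members of largest log2 fold change; other members and the opposite genes of list genes were named after their values were seen. The members, lists and tests were chosen with earlier results of these data known. The alternatives were other scalings, filters and tools, a replicate block, a 100-base minimum overlap and leaving out each library. Same-numbered libraries did not deviate together (r from −0.0223 to 0.0189), and the numbers were not used as pairs. The versions used were DESeq2 1.42.0, limma 3.58.1 and edgeR 4.0.16 in R 4.3.3, and Python 3.11.15. Values of some genes are not reported here.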

Additional observations from a re-analysis of the deposited data

How the results depend on the processing

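With no filter on low counts, 20 of 45 receptor genes with a count were called (16 higher, 4 lower in neurons), 22 loci, 30 list genes and 11762 of all 28820 genes, of which 21.2% were higher and 19.6% lower; the difference comes with the number of genes tested. Partners gave 11 calls in that fit, 10 with a mean of at least 10 counts, and 7 of 7 tested when at least 100 shared bases were asked. Leaving out 1 library gave 4 to 8 receptor genes, 10 to 11 partners, 10 to 13 loci, 15 to 21 list genes and 5430 to 7353 genes in all; the 4 came without ESC replicate 3, when Gabrb1, Glra4 and Grin3b lost their calls. With the replicate block 7 receptor genes, 10 partners, 11 loci, 18 list genes and 6088 genes were called, so the block changed no count by more than 1.5 times. DESeq2's Wald test and limma-voom each called 6 of the 8 receptor genes, losing Glra4 (adjusted p 0.114 and 0.0509). Of the log2 fold changes of named genes and loci, Gabbr1, alone and as a locus, reversed under total counts (0.29), and Gm20635 reversed without the filter (−0.06) and without neuron replicate 1 (−0.22); none of these was called. Without neuron replicate 2 Gm20635 stood at 0.23. Glra4 also lost its call without the filter (edgeR adjusted p 0.142). Apart from the filters, the cause was not tested. Counts were low for many receptor genes: 26 of the 52 never exceeded 3 counts. Whether depth or the strand assignment accounts for this was not tested. Total counts, tried on the family sums after seeing the data, turned no direction of a family with counts in both groups.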
